A study of Mus musculus with 6 samples.

Results

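Genes of the DNA damage checkpoint and of DNA repair were examined in mouse leukaemia cells in which Cre recombinase had been switched on to delete Bcor. The group was a list of 42 named genes, and 39 of them were measured among 19938 genes in all. Rbbp8 and Xrcc2 were not analysed here, and Rnf8 was covered only by a probe set that carries a second gene name, so it has no value of its own. The 39 genes covered checkpoint kinases, break sensing and end resection, signalling on chromatin, homologous recombination, the Fanconi anaemia pathway, RecQ helicases, and base excision, mismatch and nucleotide excision repair.

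The cells were C57Bl/6 pre-B cells transformed with BCR-ABL1, the fusion kinase of Philadelphia chromosome-positive acute lymphoblastic leukaemia (Ph+ ALL), with the genotype Bcor fl/Y. The 3 Cre-ERT2 samples carried the PMIP-CRE-ERT2 vector, whose Cre is activated by tamoxifen, and the 3 ERT2 samples carried PMIP-ERT2, which is named without Cre. Cells of both groups were puromycin resistant and had been given 4OH-Tamoxifen at 0.5 micromolar for 2 days, so transformation, floxed allele, drug and selection were common to all 6 arrays. Active Cre and loss of Bcor came together in the Cre-ERT2 samples, and their effects on the genes below cannot be told apart. Separate cultures are not described, so p-values measure the spread between these arrays, which may be technical.

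A double-strand break is recognised by the MRE11-RAD50-NBN complex, which activates the kinase ATM, while single-stranded DNA at stalled forks and resected ends activates ATR and its effector CHK1. Homologous recombination then copies the lost sequence from the sister chromatid with the help of BRCA1-BARD1, PALB2 and BRCA2, and the Fanconi anaemia pathway unhooks crosslinks between the strands. Pre-B cells make programmed breaks at their immunoglobulin genes. BCOR is a corepressor of BCL6, and BCL6 is reported to repress ATR and CHEK1 in human germinal centre B cells.

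Of the 39 genes, 5 were lower in Cre-ERT2 cells and 0 were higher by limma's moderated test at an adjusted p under 0.05. They were Fancl, Fancb and Fancd2 of the Fanconi anaemia pathway, Bard1, the partner of BRCA1, and Nbn, the break sensor subunit. Of these 39 genes 12.8% were thus called lower and 0% higher, against 2.98% lower and 4.05% higher (7.03% in all) of the 19938 genes tested. The 39 genes are bright, with a median level of 10.78 against 8.86 for all genes. With the dimmest 50% of genes left out, which kept all 39, 8.05% of genes were called lower and 9.01% higher. Counts of the 39 in that fit are given below. The count of 5 became 2 without replicate 1 or 2 of either group, and 16 with array weights. All 5 changes were small, from 1.11-fold to 1.23-fold, and the median log2 fold change of the 39 genes was -0.09, against -0.04 over all genes. Without adjustment, 17 of the 39 were lower and 1 was higher at p under 0.05, against 15% lower and 8% higher of all genes. The log2 fold change was below 0 for 37 of the 39 genes and for 68.2% of all genes.

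The promoter windows of the called genes are shown here because the genes fell together, with that of Chek1 because its human counterpart is a reported BCL6 target. Each runs 5′ to 3′ on the gene's strand, from 250 bases before to 50 bases after a transcript start, in the RefSeq build GRCm38.p6. Capitals of 7 letters mark an E2F-type core (TTCCCGC or TTGGCGC or TTCGCGC or TTGCCGC, either strand). Capitals of 9 letters mark a BCL6 and STAT type match (TTC, any 3 bases, GAA). The windows are Bard1 at chr1:71102923-71103222 (minus strand), Fancb at chrX:164980342-164980641 (plus), Fancl at chr11:26386834-26387133 (plus) and Chek1 at chr9:36726609-36726908 (minus). Nbn and Fancd2 have no entry in the table.
Bard1: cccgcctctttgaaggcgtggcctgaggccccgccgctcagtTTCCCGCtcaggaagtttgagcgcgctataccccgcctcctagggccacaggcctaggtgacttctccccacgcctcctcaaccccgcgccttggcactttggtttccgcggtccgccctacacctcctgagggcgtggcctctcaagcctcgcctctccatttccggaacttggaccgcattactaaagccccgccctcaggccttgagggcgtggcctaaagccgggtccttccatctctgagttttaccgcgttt
Fancb: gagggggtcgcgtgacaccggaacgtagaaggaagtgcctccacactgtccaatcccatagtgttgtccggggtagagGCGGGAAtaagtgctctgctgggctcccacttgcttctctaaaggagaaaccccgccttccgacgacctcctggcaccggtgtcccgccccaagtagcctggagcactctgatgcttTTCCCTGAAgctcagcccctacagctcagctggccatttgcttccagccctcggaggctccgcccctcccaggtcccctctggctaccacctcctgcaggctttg
Fancl: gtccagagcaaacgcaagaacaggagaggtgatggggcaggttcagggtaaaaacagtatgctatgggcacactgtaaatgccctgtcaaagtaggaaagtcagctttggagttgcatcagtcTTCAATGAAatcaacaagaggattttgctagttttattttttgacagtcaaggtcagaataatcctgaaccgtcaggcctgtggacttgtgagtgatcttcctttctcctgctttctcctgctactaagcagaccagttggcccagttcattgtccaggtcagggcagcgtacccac
Chek1: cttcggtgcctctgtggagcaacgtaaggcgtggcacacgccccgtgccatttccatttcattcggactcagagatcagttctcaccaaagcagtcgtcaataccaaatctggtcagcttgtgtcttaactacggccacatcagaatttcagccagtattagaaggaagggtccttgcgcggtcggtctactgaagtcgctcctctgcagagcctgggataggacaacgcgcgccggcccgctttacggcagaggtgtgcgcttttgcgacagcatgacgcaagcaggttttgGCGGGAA

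Bard1 and Chek1 held 1 E2F-type core each, Fancb held 1 E2F-type core and 1 BCL6 and STAT type match, and Fancl held 1 BCL6 and STAT type match. Of the 39 measured genes 32 had a window. An E2F-type core was present in 19 of these 32 genes (59.4%), against 14.7% of the 15563 tested genes with a window and 9.6% of all 32851 windows. The CCAAT box (CCAAT) was found in 59.4% of the 32 genes and in 41.7% of the tested genes. The cell cycle homology region (TTTGAA) occurred in 3 of the 32 (9.4%, against 17.3%), and the BCL6 and STAT type match in 3 (9.4%, against 9.0%): Fancb, Fancl and Rad54l. All motifs were searched on both strands. The median log2 fold change was -0.09 in the 19 genes with an E2F-type core, of which 2 were called, and -0.10 in the 13 without, of which 1 was called.

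The Fanconi anaemia pathway held 3 of the 5 calls, or 33.3% of its 9 measured genes, against 2.98% of all genes. Fancl encodes the ubiquitin ligase of the Fanconi core complex, which attaches ubiquitin to FANCD2 and FANCI. Its log2 value was 10.49, 10.41 and 10.38 in Cre-ERT2 replicates 1 to 3, and 10.78, 10.73 and 10.66 in ERT2 replicates 1 to 3. Every Cre-ERT2 array was below every ERT2 array. Fancl averaged 10.42 ± 0.0553 in Cre-ERT2 and 10.72 ± 0.0606 in ERT2 (SD, n = 3 each), so that it fell by 0.30 on the log2 scale (SE 0.0474, adjusted p = 0.00654 by limma).

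Fancb, an X-linked gene, encodes a core complex subunit that holds FANCL in place. It read 10.44, 10.42 and 10.42 with Cre-ERT2, and 10.77, 10.71 and 10.67 with ERT2. The groups were apart, and the Cre-ERT2 arrays lay close together (10.43 ± 0.0135, against 10.72 ± 0.0524 in ERT2, SD, log2). The log2 fold change was -0.29 (SE 0.0407, adjusted p = 0.00358). The Fancl and Fancb calls held in all 16 alternative settings, with adjusted p of up to 0.0353 and 0.0225. Some of the 16 could hardly end them. An adjusted p of 0.1 only loosens the threshold of the main fit, and probe set means leave genes with 1 probe set, as these are, at the same values.

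Fancd2 encodes the substrate that is ubiquitinated by the core complex and then clamps onto DNA. Its log2 values were 11.03, 11.10 and 11.17 in the Cre-ERT2 arrays, and 11.33, 11.38 and 11.33 in the ERT2 arrays. The groups did not overlap, with Cre-ERT2 replicate 3 nearest to the ERT2 arrays. Fancd2 fell by 0.24 (SE 0.0457, adjusted p = 0.0146). The call ended without Cre-ERT2 replicate 1 (adjusted p = 0.0557) or 2 (0.0642), or without ERT2 replicate 1 (0.0512) or 2 (0.0543).

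The other 6 genes of the pathway were not called, and all had a log2 fold change below 0, as had 68.2% of all genes. Fanci, the partner of FANCD2 on DNA, was at -0.10 (SE 0.0389, adjusted p = 0.156) with the groups apart. Fancc, a core complex subunit, was at -0.16 (SE 0.0464, adjusted p = 0.0825), also with the groups apart, at 8.83, 8.86 and 8.85 in Cre-ERT2, and 8.96, 9.09 and 8.96 in ERT2. Fancg, likewise of the core complex, was at -0.05 with groups that just missed each other. Fanca (-0.06), the translocase gene Fancm (-0.04) and the helicase gene Brip1 (-0.09) overlapped between groups.

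**Figure D1:**
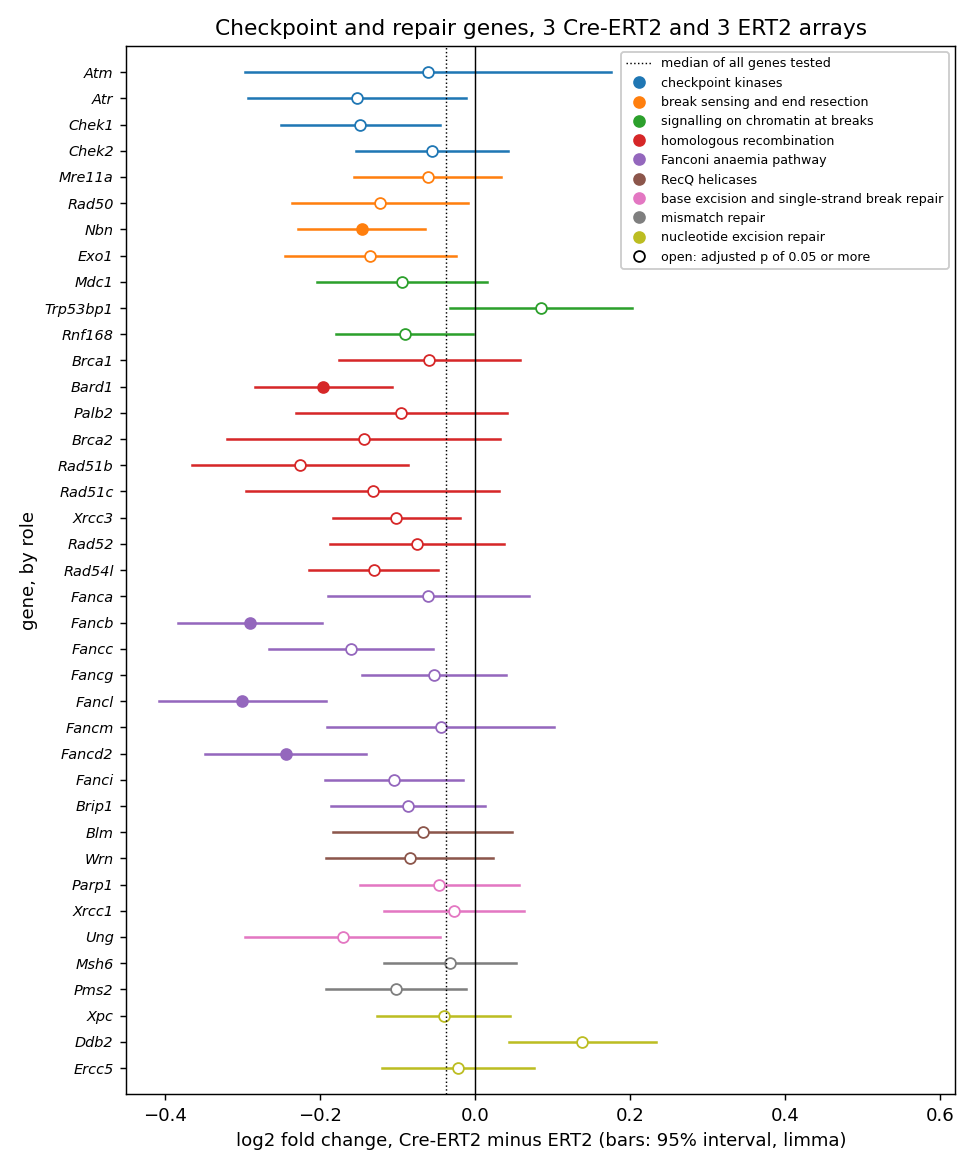
Log2 fold change (x axis, Cre-ERT2 minus ERT2) of the 39 measured genes (y axis), coloured by role, with the 95% interval from limma as a bar. Filled circles mark the 5 genes called, all of them left of 0, and the dotted line marks the median of all genes at -0.04.

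In homologous recombination 1 of 9 measured genes was called lower (11.1%, against 2.98% of all genes). The log2 fold change was below 0 for 9 of 9, as it was for 68.2% of all genes. Bard1 pairs with BRCA1 in a ubiquitin ligase that acts at breaks. It read 10.91, 10.98 and 10.98 in Cre-ERT2 arrays, and 11.17, 11.15 and 11.13 in ERT2 arrays. The groups were well apart, and Bard1 fell by 0.20 on the log2 scale (SE 0.0387, adjusted p = 0.0190). The array carries 3 probe sets for Bard1, and their log2 fold changes were -0.20, -0.18 and -0.20. The Bard1 call ended without replicate 1 or 2 of either group (adjusted p up to 0.0884).

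Brca1 itself read 10.75, 10.78 and 10.90 with Cre-ERT2, and 10.89, 10.91 and 10.81 with ERT2. These overlapped, and its log2 fold change of -0.06 had a 95% interval from -0.18 to 0.06 (adjusted p = 0.526). Rad51b, which acts in homologous recombination, had the lowest fold change of the role at -0.23 but was not called (SE 0.0609, adjusted p = 0.0644). Its values were 9.56, 9.64 and 9.80 in Cre-ERT2 arrays, and 9.87, 9.94 and 9.86 in ERT2 arrays. Its groups were apart, and it passed the threshold of the setting in 6 of 16 alternatives. Among them were the main fit read at an adjusted p of 0.1, and the fit without Cre-ERT2 replicate 3 (adjusted p = 0.0136).

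Rad54l, a motor protein of strand exchange, was at -0.13 (SE 0.0366, adjusted p = 0.0738) and Xrcc3, which also acts in recombination, at -0.10 (SE 0.0360, adjusted p = 0.139). Both had groups apart. Brca2, a tumour suppressor gene of this pathway, was at -0.14, Rad51c at -0.13, Palb2, the link between BRCA1 and BRCA2, at -0.10, and Rad52 at -0.07, all with overlapping groups. The Brca2 values ran from 10.84 to 11.08 in Cre-ERT2 arrays, and from 10.96 to 11.19 in ERT2 arrays.

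Among the genes for break sensing and end resection 1 of 4 was called lower (25%, against 2.98% of all genes). Nbn read 10.72, 10.70 and 10.71 in Cre-ERT2 cells, and 10.88, 10.84 and 10.85 in ERT2 cells. The groups were apart with little spread, and the log2 fold change was -0.15 (SE 0.0360, adjusted p = 0.0472). This call was the least firm of the 5. The array has a second Nbn probe set, which was at -0.02 (SE 0.0385), and with the mean of both the adjusted p was 0.208. Leaving out any single array also ended the call (adjusted p from 0.0727 to 0.170), as did cyclic loess (0.0703).

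The other subunits of the complex were not called. Rad50, which tethers broken ends, was at -0.12 (SE 0.0498, adjusted p = 0.186), and the nuclease gene Mre11a at -0.06 (SE 0.0414, adjusted p = 0.409). Exo1, the exonuclease of long-range resection and mismatch repair, was at -0.14 (SE 0.0484, adjusted p = 0.142), with values of 11.10, 11.14 and 11.25 in Cre-ERT2 arrays, and 11.28, 11.33 and 11.29 in ERT2 arrays. The Exo1 groups did not overlap, and it was called without Cre-ERT2 replicate 3 (adjusted p = 0.0477).

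None of the 4 checkpoint kinases was called by limma (0 of 4). At an unadjusted p under 0.05, 2 of 4 were lower, against 15% of all genes. Chek1 encodes the effector kinase that slows S phase and entry into mitosis. It read 11.99, 11.93 and 11.96 in Cre-ERT2 arrays, and 12.18, 12.09 and 12.05 in ERT2 arrays. Each Cre-ERT2 array was below each ERT2 array, with a log2 fold change of -0.15 (SE 0.0449, adjusted p = 0.0931). It passed the threshold with an intensity trend in eBayes (adjusted p = 0.0352), with array weights (0.0142) and with the dimmest 50% of genes left out (0.0394).

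Atr, the kinase that answers stalled forks, read 11.01, 11.01 and 11.16 in Cre-ERT2, and 11.28, 11.26 and 11.10 in ERT2. The third array of each group crossed over, and its log2 fold change was -0.15 (SE 0.0618, adjusted p = 0.187). Of the 16 alternatives, array weights called it (-0.22, adjusted p = 0.0165). Atm, the kinase of double-strand breaks, had the widest spread of the 39 genes, at 10.87, 10.94 and 11.18 in Cre-ERT2, and 11.13, 11.19 and 10.84 in ERT2. Its fold change of -0.06 had a 95% interval from -0.30 to 0.18, and its sign turned without Cre-ERT2 replicate 1 or ERT2 replicate 2. Chek2, the effector kinase of ATM, was at -0.06 (adjusted p = 0.472). Atr in Cre-ERT2 replicate 3 (11.16) was above ERT2 replicate 3 (11.10), while no Chek1 values crossed between the groups. Whether BCL6 acts on these genes in these cells was not tested.

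**Figure D2:**
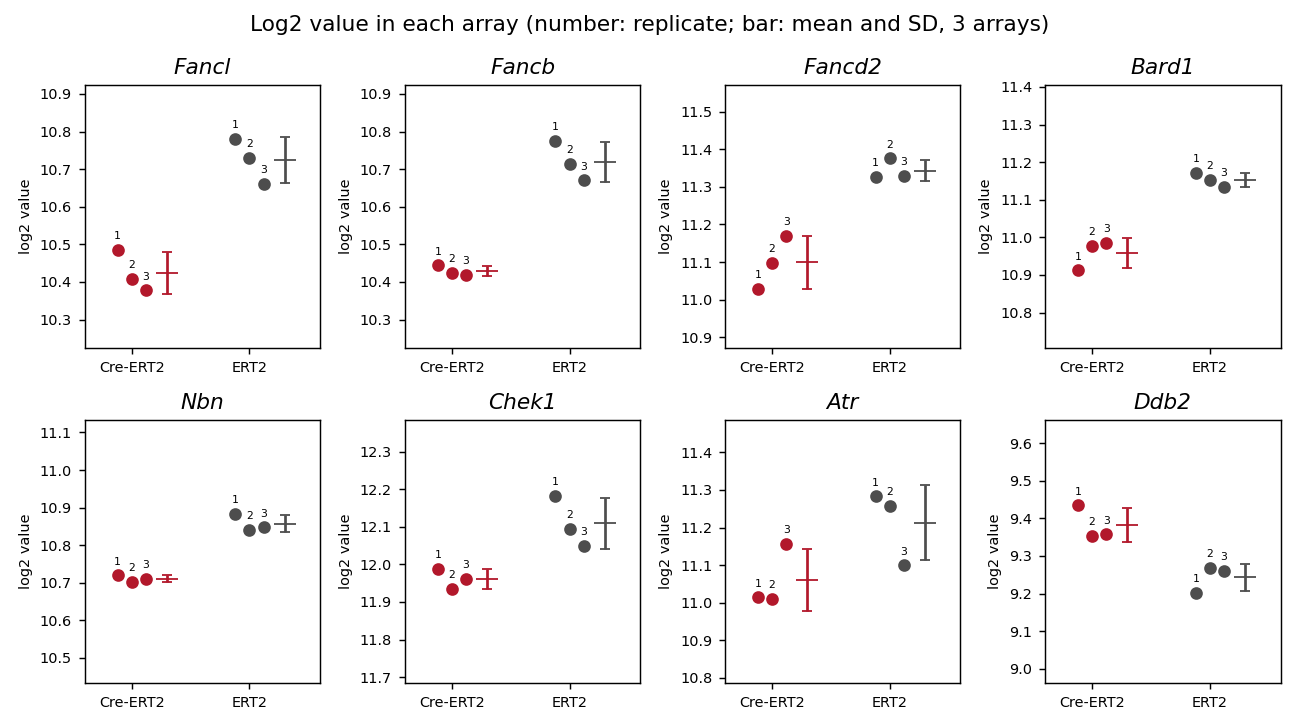
Log2 value (y axis, spans of equal length) of the 5 called genes and of Chek1, Atr and Ddb2 in each Cre-ERT2 array (left) and ERT2 array (right), with the replicate number above each point and the mean ± SD of 3 arrays beside them. The groups are apart in every panel but that of Atr, and Ddb2 is the one gene of the 8 that lies higher in Cre-ERT2.

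Genes that signal on chromatin around a break were not called (0 of 3). At an unadjusted p under 0.05, 1 of 3 was lower, against 15% of all genes. That gene was Rnf168, the ubiquitin ligase that marks histone H2A, at -0.09 (SE 0.0387, adjusted p = 0.206) with groups apart. Mdc1, the scaffold that reads phosphorylated H2AX, was at -0.09 (adjusted p = 0.284). Trp53bp1, which restrains resection and favours end joining, was 1 of only 2 measured genes with a log2 fold change above 0. It was at 0.08 (SE 0.0516, adjusted p = 0.361), with overlapping values of 10.22, 10.27 and 10.36 in Cre-ERT2, and 10.27, 10.18 and 10.14 in ERT2.

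The gene with the other positive value was Ddb2, the damage sensor of nucleotide excision repair, a p53 target in human cells. It read 9.43, 9.35 and 9.36 in Cre-ERT2 arrays, and 9.20, 9.27 and 9.26 in ERT2 arrays. The Cre-ERT2 values were all higher, and the log2 fold change was 0.14 (SE 0.0416, adjusted p = 0.0903). It was called with array weights (adjusted p = 0.0234), and with the dimmest 30% (0.0499) or 50% (0.0361) of genes left out. Xpc, its partner in finding lesions, was at -0.04 (adjusted p = 0.553), and Ercc5, the nuclease that cuts 3′ of the lesion, at -0.02 (adjusted p = 0.797).

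In base excision and single-strand break repair 0 of 3 genes were called. Against 15% of all genes, 1 of 3 was lower at an unadjusted p under 0.05. This was Ung, the glycosylase that removes uracil from DNA, which averaged 9.88 ± 0.0799 in Cre-ERT2 arrays and 10.05 ± 0.0741 in ERT2 arrays (SD, n = 3 each, log2). The groups were apart, and the log2 fold change was -0.17 (SE 0.0552, adjusted p = 0.111). Parp1, the polymerase that marks strand breaks with ADP-ribose, was at -0.05 (95% interval -0.15 to 0.06), and the scaffold gene Xrcc1 at -0.03 (-0.12 to 0.06). In mismatch repair Pms2 was at -0.10 (SE 0.0395, adjusted p = 0.170) with groups apart, and Msh6 at -0.03 (adjusted p = 0.639). The RecQ helicase genes Blm (-0.07, adjusted p = 0.457) and Wrn (-0.08, adjusted p = 0.324) overlapped between groups.

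Counted over all roles, the Cre-ERT2 arrays lay wholly below the ERT2 arrays for 18 of the 39 genes and wholly above for 1, with 20 overlapping. Over all genes 20.3% were wholly below and 9.56% wholly above, 29.9% together. The arrays numbered 3 lay nearer to the opposite group for many of these genes. In Cre-ERT2 replicate 3, 33 of the 39 genes were above their group mean, as were 62.6% of all genes. In ERT2 replicate 3, 27 of the 39 were below their group mean, against 37.5% of all genes. In Cre-ERT2 replicates 1 and 2, 27 and 28 of the 39 were below it, with 55.1% and 60.3% of all genes. Cre-ERT2 replicate 3 was the highest of its group for 24 of the 39 genes and for 50.3% of all genes, and ERT2 replicate 3 the lowest of its group for 22 of the 39 and for 25.9% of all genes. For 17 genes Cre-ERT2 replicate 3 was the highest of its group and ERT2 replicate 3 the lowest of its group, and 12 of these were among the 20 overlapping genes. Over all genes this held for 15.5%. On the second principal component over all genes (20.6% of the variance), Cre-ERT2 replicate 3 was highest (8.48) and ERT2 replicate 3 lowest (-6.68). ERT2 replicate 2 (6.58) lay beside the first of these, and Cre-ERT2 replicate 1 (-5.75) beside the second. The source of these differences between arrays was not tested.

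**Figure D3:**
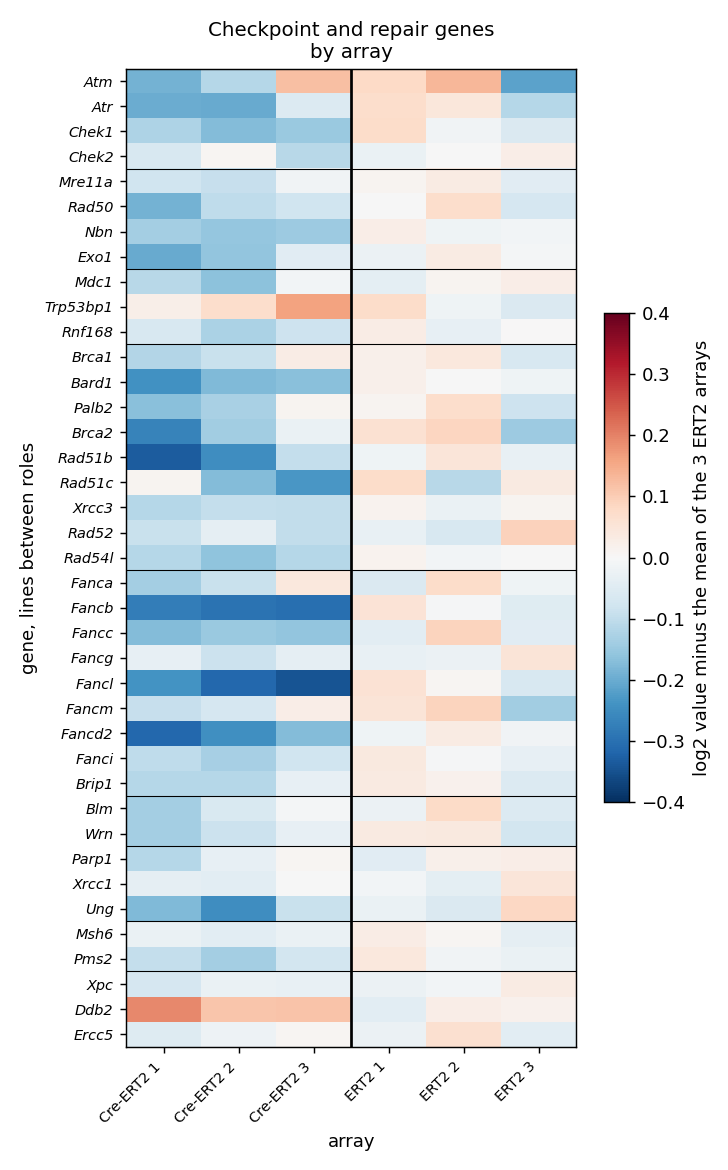
Log2 value minus the mean of the 3 ERT2 arrays (colour) for 39 genes (rows, by role) in 3 Cre-ERT2 arrays (left of the line) and 3 ERT2 arrays (right). Fancl, Fancb and Fancd2 are blue in all 3 Cre-ERT2 columns, while Atm, Brca2 and Fancm show their palest or reddest Cre-ERT2 cell and their bluest ERT2 cell in the columns numbered 3.

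Checkpoint and repair genes outside the list were counted in the same way. Of 109 other measured repair genes 9 were lower (8.26%) and 2 higher (1.83%), against 2.98% and 4.05% of all genes. Their median log2 fold change was -0.07. They are bright as well, with a median level of 10.79 against 8.86 for all genes. With the dimmest 50% of genes left out, 8.05% of genes were called lower and 9.01% higher. Those lower numbered 2 to 6 with 1 array left out. The largest falls were in Tdp1, which frees trapped topoisomerase I (-0.26, SE 0.0449, adjusted p = 0.0101), the glycosylase gene Neil3 (-0.25, SE 0.0467) and the nuclease gene Slx1b (-0.24, SE 0.0404). Lig1, the ligase of replication and long-patch repair, fell by 0.22 (SE 0.0547), Mlh3 by 0.20 (SE 0.0414) and Rad1, of the clamp that activates ATR, by 0.19 (SE 0.0440). The genes that rose, named after their values were seen, were Faap20, which joins the Fanconi core complex (0.19, SE 0.0362, adjusted p = 0.0180), and Parp3 (0.15, SE 0.0362, adjusted p = 0.0472). Faap20 read 10.13, 10.16 and 10.15 in Cre-ERT2 arrays, and 9.96, 9.94 and 9.98 in ERT2 arrays, the opposite direction to Fancl and Fancb. Among the 13 genes of ATR activation and fork protection 2 fell (15.4%, against 2.98% of all genes). All 13 fold changes were below 0, as were 68.2% over all genes. Of these 11 calls, Tdp1 and Slx1b kept theirs whichever array was dropped (highest adjusted p 0.0444 and 0.0498), and the other 9 lost theirs at least once (highest adjusted p 0.183).

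Expression of many repair genes follows the cell cycle, so S phase genes were set beside them. Of 31 measured S phase genes 4 were lower (12.9%, against 12.8% of the 39 genes and 2.98% of all genes) and 0 higher. Those lower were Ccne1 (-0.24), Dut (-0.19), Tk1 (-0.18) and Rrm2 (-0.18). At an unadjusted p under 0.05, 22 were lower (71%, against 43.6% of the 39 and 15% of all genes). All 31 of 31 had a fold change below 0, against 68.2% of all genes, and their median was -0.12. The S phase genes are also bright, with a median level of 11.77 against 8.86 for all genes. The count of 4 became 0 when Cre-ERT2 replicate 2 or ERT2 replicate 1 was dropped, 1 when Cre-ERT2 replicate 1 was dropped and 2 when ERT2 replicate 2 was dropped. Mean log2 over the S phase list lay between 11.72 and 11.76 in Cre-ERT2 arrays, and between 11.85 and 11.89 in ERT2 arrays. Of the 39 checkpoint and repair genes, 14 were listed as E2F-linked, a list made with earlier results of these data known. Of these 14, 3 were called (Bard1, Fancb and Fancd2), with a median of -0.13. Of the other 25 genes 2 were called (Fancl and Nbn), with a median of -0.08. Split instead by an E2F-type core in the promoter window, the medians were -0.09 with a core and -0.10 without. Neither split is a test of a link to E2F. Of 23 mitosis genes 1 was lower (4.35%), the kinetochore gene Ndc80 (-0.29, SE 0.0387, adjusted p = 0.00265), and the median of the 23 was -0.02. In bulk RNA, fewer cells in a stage and less RNA per cell cannot be told apart, and the part of the S phase genes in these results was not tested.

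End joining, the other route of break repair, had 0 of 9 genes called by limma, with a median of -0.02. At an unadjusted p under 0.05, 2 of 9 were lower (22.2%, against 15% of all genes). The gene of smallest p was Xrcc5, a subunit of the Ku end-binding protein, at -0.12 (SE 0.0396, adjusted p = 0.128). Of 24 measured p53 target genes 3 were higher (12.5%, against 4.05% of all genes), 4 lower (16.7%, against 2.98%) and 17 not called. Their median was -0.04, equal to that of all genes to 2 decimals. Those higher were Btg2 (0.60), Trp53inp1 (0.46) and Zmat3 (0.33). Those lower were Plk3 (-0.57), Sesn2 (-0.32), Rrm2b (-0.22), a ribonucleotide reductase subunit that serves DNA repair, and Fas (-0.19).

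**Figure D4:**
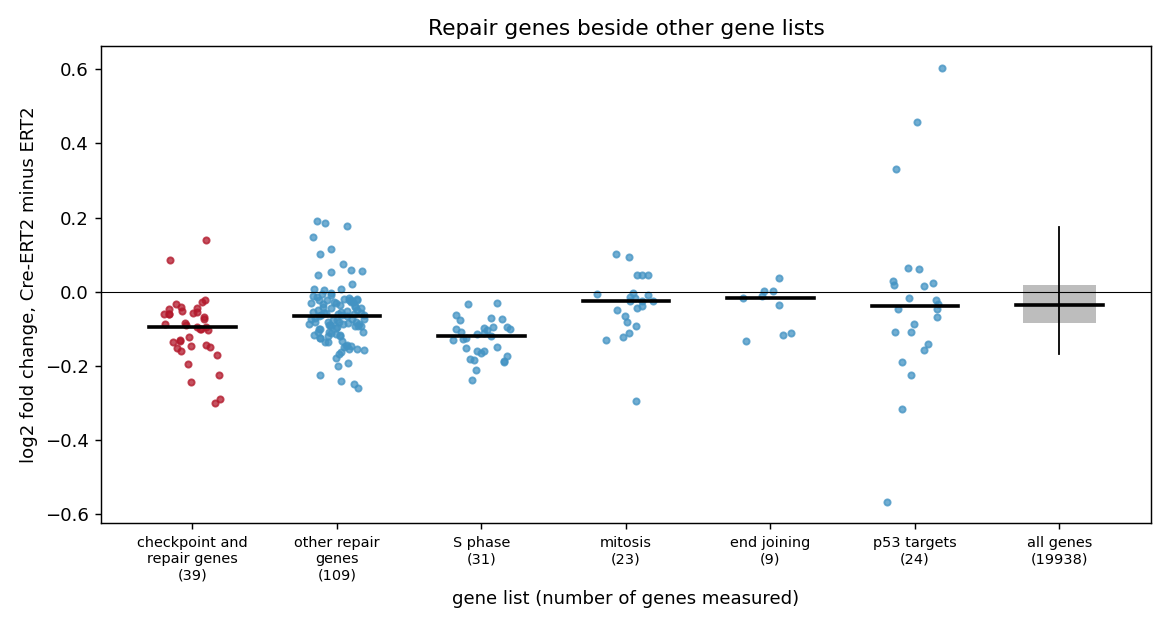
Log2 fold change (y axis, Cre-ERT2 minus ERT2) of single genes (points) in the 39 checkpoint and repair genes and in 5 other lists, with the median as a thick line. For all 19938 genes the box spans the quartiles and the thin line runs from the 5th to the 95th percentile. The checkpoint and repair genes have a median of -0.09 and the S phase genes one of -0.12, below the -0.04 of all genes.

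Bcor, the gene targeted, was lower in each Cre-ERT2 array, at 9.16 ± 0.0716 in Cre-ERT2 against 10.12 ± 0.0517 in ERT2 (SD, 3 arrays each, log2), a fold change of -0.96 (SE 0.0491). The median log2 value per array over all genes lay between 8.84 and 8.87. Mean log2 over 13 B-lineage markers was 11.79 to 11.84 in Cre-ERT2 arrays and 11.77 to 11.83 in ERT2 arrays. Of the 13, 2 were higher and 2 lower (15.4% each, against 4.05% and 2.98% of all genes). Dntt, which adds bases at V(D)J joints, was at 0.86 (SE 0.0741, adjusted p = 0.000250) and Cd22 at 0.27, while Rag2 (-0.71, SE 0.0876, adjusted p = 0.00189) and Rag1 (-0.38, SE 0.0415, adjusted p = 0.000958), which cut DNA at the immunoglobulin genes, were lower. Myeloid markers averaged 8.03 to 8.07 in Cre-ERT2 arrays and 8.09 to 8.10 in ERT2 arrays (1 of 12 higher, Lyz2 at 0.45, and 1 lower, Mrc1 at -0.54). Genes listed as T and NK markers averaged 8.18 to 8.20 in Cre-ERT2 and 8.17 to 8.27 in ERT2 (1 of 12 higher, Cd2 at 0.33, and 1 lower, Ncr1 at -0.23). In the myeloid and the T and NK lists alike, 8.33% were called higher and 8.33% lower, against 4.05% and 2.98% of all genes. Cd2 stood apart from the T and NK list in level, at a mean of 11.57 against 9.35 for the next brightest, Cd5. Of 8 erythroid and megakaryocyte and 11 stromal markers 0 were called. At an unadjusted p under 0.05, 1 of the 8 was lower, and of the 11 stromal markers 4 were lower and 1 higher. Over all genes 15% were lower and 8% higher at that threshold. The part of these markers in the results was not tested, and the arrays give no level at which a gene counts as absent.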

How the data were processed

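The authors deposited log2 expression values per probe set from biotin-labelled Affymetrix arrays. On the basis of the submitters' processing notes, which name RMA and Partek 6.5 without saying what each did, the values are taken as RMA output; background setting and genome build are not given in the sources used here. Of 35556 probe sets 21789 had 1 gene symbol in GEO's platform annotation, and for each of 19938 genes the brightest such probe set, by its mean over the 6 arrays, gave the value. Promoters and their coordinates are RefSeq's, GRCm38.p6.

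The difference Cre-ERT2 minus ERT2 was fitted over all 6 arrays with lmFit and eBayes (limma 3.58.1, R 4.3.3, no trend, two-sided), with Benjamini-Hochberg adjustment over all 19938 genes and a threshold of 0.05. Errors are the SD over 3 arrays or the moderated SE. The median SE was 0.0477 over all genes, and the number of arrays limits the precision. Python 3.11.15, pandas 2.3.3 and matplotlib 3.10.9 served motifs and plots, and the fit was tested on simulated data.

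The members, the lists and the rule for named genes (all called members, up to 6 called genes of each other list) were chosen with earlier results of these data known. Alternatives were a replicate block, an eBayes trend, array weights, 3 normalizations, filters on dim genes, probe set means, an adjusted p of 0.1 and each array left out.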

Additional observations from a re-analysis of the deposited data

How the results depend on the processing

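All 39 genes stayed in each fit, and over 16 alternatives the sign of a gene's log2 fold change turned in 4 of 624 values: Atm without Cre-ERT2 replicate 1 (0.0038) or ERT2 replicate 2 (0.0069), and Fancm (0.00028) and Ercc5 (0.011) without ERT2 replicate 2. Some of the 624 could not turn: an adjusted p of 0.1 reuses the main fit, and probe set means leave genes with 1 probe set unchanged. With 1 array left out, Atm ran from -0.168 to 0.0069, Fancm from -0.114 to 0.00028 and Ercc5 from -0.042 to 0.011. Leaving out 1 array moved the value of 18 of the 34 genes not called by over 1.5 times, these 3 included, and of 0 of the 5 called. The called genes were picked for large changes in these same arrays, so this contrast is no test of how firm they are. The calls of Fancd2, Bard1 and Nbn ended in some of these fits. Among the 18, Xrcc1 ran from -0.046 to -0.0032, Parp1 from -0.073 to -0.012, Fanca from -0.112 to -0.022, Rad52 from -0.106 to -0.028, Blm from -0.098 to -0.029 and Brca1 from -0.103 to -0.029. The number of the 39 genes called lower was 5, and became 8 with an eBayes trend, 16 with array weights, 8 and 9 with the dimmest 30% and 50% of genes left out, 9 at an adjusted p of 0.1, and 2 to 6 with 1 array left out. It was 2 without replicate 1 or 2 of either group. The number called higher was 1, not 0, with array weights, with either filter on dim genes and at an adjusted p of 0.1. The median of the 39 genes was -0.12 with array weights. With the dimmest 50% left out, 8.05% of all genes were called lower and 9.01% higher. Of the other repair genes, 2 were called higher in the main setting, and 4 with an eBayes trend, 1 after quantile normalization, 4 with the dimmest 50% left out, 4 at an adjusted p of 0.1 and 0 to 2 with 1 array left out. Those called lower, 9, became 19 with array weights and 2 to 6 with 1 array left out, and their median was -0.05 (-0.048) after cyclic loess and -0.083 to -0.061 with 1 array left out. The S phase genes called lower, 4, became 13 with an eBayes trend, 17 with array weights, 9 and 12 with the dimmest 30% and 50% left out, 9 at an adjusted p of 0.1 and 0 to 6 with 1 array left out. Over all genes, 808 higher and 594 lower became 1315 and 2024 with array weights, 1051 and 425 after cyclic loess, 1081 and 1190 at an adjusted p of 0.1, and 513 to 713 and 214 to 628 with 1 array left out. Filters on dim genes reduce the number of genes tested, and leaving an array out reduces the samples; for the other settings the cause was not tested.

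The labels do not say whether the replicate numbers pair the arrays. Deviations from the group means of same-numbered arrays correlated at 0.0506, -0.0946 and -0.26 over all genes. Those of differently numbered arrays ran from -0.293 to 0.311, so these values cannot settle whether the arrays are paired. With a replicate block, 3 of the 39 genes were lower and 0 higher, without Bard1 (adjusted p = 0.0725) and Nbn (0.106), as were 3 and 0 of the other repair genes, 1 S phase gene was lower, and 546 genes in all were higher and 259 lower.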
